A study of Mus musculus with 6 samples.

Results

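Slamf6, Dapl1, Igfbp4, Actn1 and Ly6c1 are genes whose transcripts are used as markers of resting, naive-like or central T cells. They were taken by symbol from a table of raw RNA-seq counts of mouse regulatory T cells (Tregs), which restrain immune responses and depend on the transcription factor Foxp3. The set is 5 of the 24421 genes in the table, and all 5 were among the 11932 genes with enough counts to be tested. The study asked what the loss of Srebp2 does to the Treg transcriptome, and its 6 libraries were 3 from Srebp2cKO Tregs (replicates 6, 7 and 8) and 3 from Srebp2WT Tregs (replicates 1, 3 and 5). Srebp2, encoded by Srebf2, is the transcription factor that switches on cholesterol synthesis and sterol uptake when membrane cholesterol is low. By the labels, the Srebp2cKO genotype was Srebp2FL/FL-Foxp3YFPCRE+/- and the Srebp2WT genotype was Srebp2WT/WT-Foxp3YFPCRE+/+. Both therefore carried the YFP-Cre allele at Foxp3, which expresses Cre where Foxp3 is active, but with a different zygosity written for it. Tregs came from spleen and lymph nodes of both genotypes. Age, strain, sex and the sort gate were not stated in the sources used here, nor whether each library is a separate animal. The p-values therefore describe sample-to-sample spread, part of which may be technical.

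Libraries held 13918321 to 17249898 counts, and Srebf2 averaged 12.4 ± 1.56 CPM (counts scaled to a common library size) in Srebp2cKO Tregs and 185 ± 10.9 CPM in Srebp2WT Tregs (SD, n = 3 each; log2 fold change -3.91, edgeR quasi-likelihood adjusted p = 1.5e-08), as the labels say. Foxp3 averaged 435 ± 27.0 CPM in Srebp2cKO Tregs and 454 ± 11.5 CPM in Srebp2WT Tregs, with a log2 fold change of -0.06 and an adjusted p of 0.611, and Cd4 averaged 491 CPM in Srebp2cKO Tregs and 493 CPM in Srebp2WT Tregs. Of the other Treg markers, Il2ra (CD25) was higher (log2 fold change 0.41, adjusted p = 0.0101). Ikzf2 (Helios) had a log2 fold change of -0.26 and Ctla4 one of 0.23, each with no overlap between genotypes and adjusted p-values of 0.0645 and 0.0897. Of all tested genes, 15.5% had every Srebp2cKO library below every Srebp2WT library, and 16.0% had every one above. CPM of single genes are scaled by TMM factors, which correct library sizes for differences in composition. Fold changes are log2 Srebp2cKO over Srebp2WT, and a gene counted as changed when its p-value, adjusted over all tested genes, was below 0.05. By that rule 789 of the 11932 tested genes changed, which is 6.61%, with 283 higher (2.37%) and 506 lower (4.24%) in Srebp2cKO Tregs. The number moved with single libraries. Leaving out Srebp2cKO replicate 6 gave 1487 genes, leaving out replicate 7 gave 298 and leaving out replicate 8 gave 439. Among the Srebp2WT libraries, leaving out replicate 1 gave 167, leaving out replicate 3 gave 184 and leaving out replicate 5 gave 1082. The median log2 fold change of all tested genes was -0.000151 and the median of their absolute values was 0.184.

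The 5 marker genes have unrelated functions. Slamf6 (Ly108) and Ly6c1 are at the cell surface: Slamf6 is a receptor of the SLAM family that binds itself on neighbouring cells and signals through the adaptor SAP, and Ly6c1 encodes a form of Ly6C, a small protein anchored to the membrane by a lipid. Igfbp4 is a secreted protein that binds insulin-like growth factors and limits their access to the receptor. Actn1 is alpha-actinin, which crosslinks actin filaments and ties integrins to them, and Dapl1 is a small protein related to the death-associated protein Dap. Resting T cells recirculate through lymphoid organs and carry homing receptors such as Ccr7 for entry into lymph nodes, programs that FOXO, KLF2 and TCF1 factors maintain.

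In Srebp2cKO Tregs Actn1 was higher, by 1.31-fold, and it was the only one of the 5 that passed the test. Dapl1 had a larger fold change, 1.75-fold, on far fewer counts and did not pass. Slamf6 and Igfbp4 were at nearly equal levels in both genotypes, and Ly6c1 varied as much within a genotype as between them. All 5 log2 fold changes were positive, between 0.06 and 0.81, but that of Slamf6 was -0.08 with a GC trend removed and that of Igfbp4 -0.00109 without Srebp2WT replicate 3. The share called higher over all tested genes was 2.37%, against 1 of these 5 genes.

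**Figure D1:**
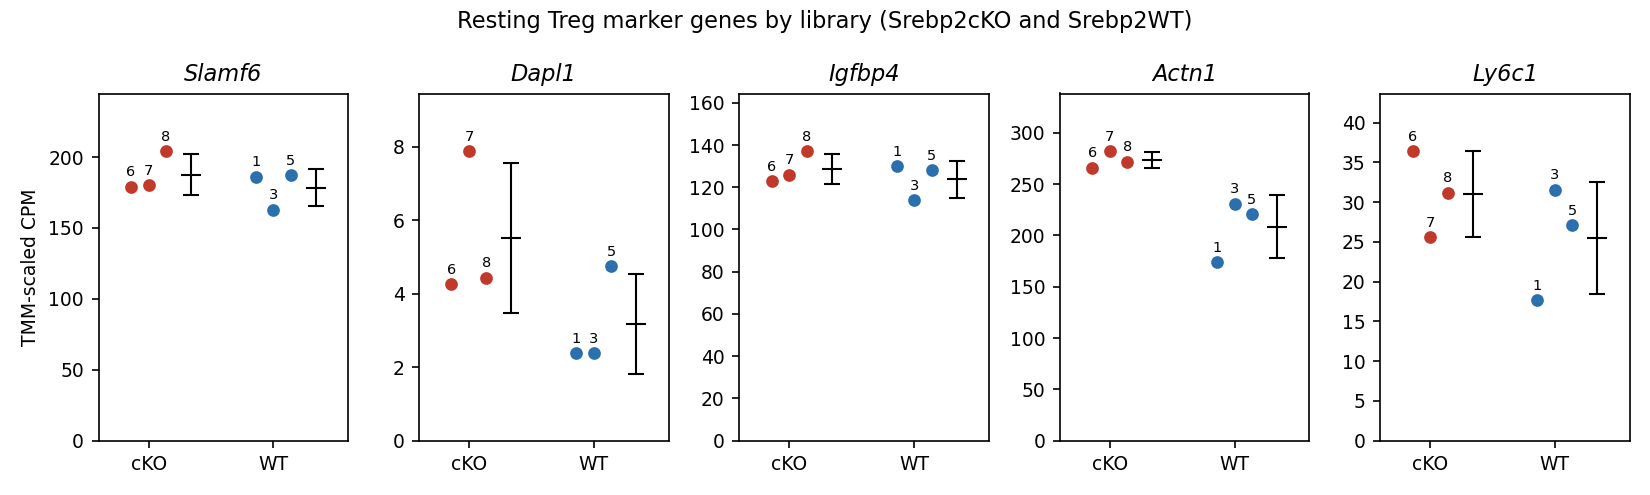
TMM-scaled CPM of the 5 marker genes in each library, Srebp2cKO at the left and Srebp2WT at the right of each panel. Points are single libraries with their replicate number, and the bar beside them is the mean with its SD (n = 3). All 3 Srebp2cKO libraries lie above all 3 Srebp2WT libraries for Actn1, and the libraries of the 2 genotypes overlap for the other 4 genes.

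Among the surface receptors, Slamf6 (ENSMUSG00000015314.10) lies on chromosome 1 at 171917515 to 171953170 on the plus strand of GRCm38. It had 179, 180 and 204 CPM in Srebp2cKO replicates 6, 7 and 8, against 186, 163 and 187 CPM in Srebp2WT replicates 1, 3 and 5. Within each genotype 2 libraries lay close together, and the Srebp2cKO and Srebp2WT values interleaved. The means were 188 ± 14.2 CPM in Srebp2cKO Tregs and 178 ± 13.3 CPM in Srebp2WT Tregs (SD, n = 3 each). This is a log2 fold change of 0.07 with an SE of 0.09 and a 95% interval from -0.12 to 0.26, and edgeR's quasi-likelihood test gave an adjusted p of 0.593. These values rest on 2442 to 3501 counts per library, so counting error (a coefficient of variation of 1.85% in Srebp2cKO and 1.91% in Srebp2WT libraries) was smaller than the spread between libraries (7.59% in Srebp2cKO and 7.45% in Srebp2WT).

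Ly6c1 (ENSMUSG00000079018.10) lies on the minus strand of chromosome 15 at 75044018 to 75048830. It had 36.4, 25.6 and 31.2 CPM in Srebp2cKO replicates 6, 7 and 8, against 17.7, 31.6 and 27.1 CPM in Srebp2WT replicates 1, 3 and 5. Srebp2WT replicate 1 was the lowest library and Srebp2cKO replicate 6 the highest, and the other 4 lay between them with the genotypes mixed. Means were 31.1 ± 5.37 CPM in Srebp2cKO Tregs and 25.5 ± 7.08 CPM in Srebp2WT Tregs (SD, n = 3 each), a log2 fold change of 0.28 (SE 0.19, 95% interval -0.15 to 0.71) with an adjusted p of 0.352. Without Srebp2WT replicate 1 the log2 fold change was 0.08. Without Srebp2WT replicate 3 it was 0.47.

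Ly6c1 has a near-identical neighbour, Ly6c2, which starts 59.3 kb away on the same strand at 75108158 to 75111970, and of the 1764 words of 50 bases in Ly6c1 transcripts 578 (32.8%) also occur in transcripts of other genes. The coding sequences of Ly6c1 and Ly6c2 are each 396 bases long and differ at 9 of them, an identity of 97.7%, with an identical run of 188 bases. The stretch from coding base 6 to base 65 holds 6 of the differences and is shown because reads there can tell the transcripts apart. It is given in the direction of transcription with the differing bases in capitals, at chr15:75048447-75048506 for Ly6c1 and chr15:75111603-75111662 for Ly6c2 in GRCm38, both on the minus strand.
Ly6c1: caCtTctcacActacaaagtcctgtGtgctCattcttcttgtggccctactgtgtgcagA
Ly6c2: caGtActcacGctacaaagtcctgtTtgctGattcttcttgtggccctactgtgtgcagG
The handling of reads that match several of these genes was not stated in the sources used here. The levels of Ly6c1, Ly6c2 and Ly6a are therefore uncertain. Ly6c2 was listed with 8, 2 and 10 counts in Srebp2cKO replicates 6, 7 and 8, against 23, 16 and 9 counts in Srebp2WT replicates 1, 3 and 5, too few to be tested. With Ly6c1 and Ly6c2 summed the log2 fold change was 0.25 and the adjusted p 0.400. Ly6a, at 927 to 1329 counts per library, was not part of this sum.

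Igfbp4 (ENSMUSG00000017493.12) is on chromosome 11 at 99041244 to 99054392, on the plus strand. It had 123, 126 and 137 CPM in Srebp2cKO replicates 6, 7 and 8, against 130, 114 and 128 CPM in Srebp2WT replicates 1, 3 and 5. The 6 libraries spanned a narrow range in which the genotypes overlapped. Means were 129 ± 7.04 CPM in Srebp2cKO Tregs and 124 ± 8.76 CPM in Srebp2WT Tregs (SD, n = 3 each). The fitted log2 difference was 0.06 with an SE of 0.08, a 95% interval from -0.12 to 0.23 and an adjusted p of 0.670. Of its 4373 words of 50 bases, 75 (1.72%) were shared with another gene.

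Actn1 (ENSMUSG00000015143.15) is on the minus strand of chromosome 12 at 80167547 to 80260371. It had 266, 282 and 272 CPM in Srebp2cKO replicates 6, 7 and 8, against 174, 231 and 221 CPM in Srebp2WT replicates 1, 3 and 5. Each Srebp2cKO library was above each Srebp2WT library, an arrangement that 16.0% of all tested genes showed. Means were 274 ± 8.11 CPM in Srebp2cKO Tregs and 209 ± 30.5 CPM in Srebp2WT Tregs (SD, n = 3 each). The log2 fold change of Actn1 was 0.39 with an SE of 0.10 and a 95% interval from 0.16 to 0.62. Its adjusted p was 0.0490, with a rank of 761 when all tested genes are ordered by p. The Srebp2cKO libraries differed by 1.06-fold between highest and lowest and the Srebp2WT libraries by 1.33-fold, with Srebp2WT replicate 1 the lowest of all. The call sat at the threshold. Among Srebp2cKO libraries it held without replicate 6 (adjusted p = 0.0463) and was lost without replicate 7 (log2 fold change 0.36, adjusted p = 0.119) or replicate 8 (0.40, adjusted p = 0.109). It was also lost without any 1 of the Srebp2WT libraries, replicate 1 (0.28, adjusted p = 0.156), replicate 3 (0.47, adjusted p = 0.0828) or replicate 5 (0.43, adjusted p = 0.0509). With library sizes scaled by upper quartiles the adjusted p was 0.0521, with total counts 0.0555, and in DESeq2 it was 0.00715.

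Of the 5520 words of 50 bases in Actn1 transcripts, 375 (6.79%) were shared with other genes. The annotated models Gm47765, Gm47766 and Gm47767 overlap Actn1 and were not in the count table, and no source used here states the strand setting of the counting. The Actn1 promoter, from RefSeq on GRCm38.p6 (250 bases before to 50 after the start, chr12:80260314-80260613, minus strand), is shown as that of the only gene of the set that passed.
Actn1: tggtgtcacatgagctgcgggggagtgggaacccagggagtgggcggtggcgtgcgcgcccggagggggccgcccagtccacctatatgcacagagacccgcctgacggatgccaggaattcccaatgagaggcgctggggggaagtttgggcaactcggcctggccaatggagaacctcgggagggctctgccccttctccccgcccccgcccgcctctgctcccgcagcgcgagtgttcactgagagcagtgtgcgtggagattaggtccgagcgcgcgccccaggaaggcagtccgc
It has no capitals because it holds none of the 6 motifs searched on either strand.

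Dapl1 (ENSMUSG00000026989.5) is on the plus strand of chromosome 2 at 59484653 to 59505020. It was the least abundant of the set, with 58, 122 and 76 counts in Srebp2cKO replicates 6, 7 and 8, against 38, 37 and 70 counts in Srebp2WT replicates 1, 3 and 5. In CPM these were 4.26, 7.87 and 4.43 in the Srebp2cKO libraries, against 2.38, 2.38 and 4.74 in the Srebp2WT libraries. Srebp2cKO replicate 7 stood above the rest, Srebp2WT replicates 1 and 3 stood below, and Srebp2WT replicate 5 lay above 2 of the Srebp2cKO libraries. The means were 5.52 ± 2.04 CPM in Srebp2cKO Tregs and 3.17 ± 1.36 CPM in Srebp2WT Tregs (SD, n = 3 each). Dapl1 thus had a log2 fold change of 0.81, an SE of 0.33 and a 95% interval from 0.07 to 1.55, with an unadjusted p of 0.0352 and an adjusted p of 0.143 in edgeR's test. An unadjusted p below 0.05 was reached by 29.1% of all tested genes. Exact Poisson 95% intervals on the counts, which cover counting error only, were 101 to 146 in Srebp2cKO replicate 7 and 44 to 75 in Srebp2cKO replicate 6, so these libraries of one genotype differed by more than counting error. Without Srebp2cKO replicate 7 the log2 fold change was 0.46, and without Srebp2WT replicate 5 it was 1.21 with an adjusted p of 0.0514.

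The promoter of Dapl1 (chr2:59484403-59484702, plus strand, RefSeq on GRCm38.p6) is shown because it was the only one of the set with a match to the FOXO site, in capitals, at 164 bases before the start.
Dapl1: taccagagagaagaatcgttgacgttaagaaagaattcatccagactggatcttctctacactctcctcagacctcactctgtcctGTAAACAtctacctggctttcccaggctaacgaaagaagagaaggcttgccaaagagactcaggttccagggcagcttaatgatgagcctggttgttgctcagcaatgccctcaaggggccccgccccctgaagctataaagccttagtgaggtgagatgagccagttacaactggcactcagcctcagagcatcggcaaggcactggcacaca
Promoters were found for 5 of the 5 genes, with a second start for Ly6c1. Both strands were searched for the sterol regulatory element core CACCCCA, the E-box CACGTG, the FOXO site GTAAACA, the KLF site CCACCC, the TCF/LEF site CTTTGA and the GATA site AGATAA, of which the first and the KLF site can overlap. Over 27025 promoters of the same length, 7.5% held the sterol core, 7.24% the E-box, 3.55% the FOXO site, 30.9% the KLF site, 16.2% the TCF/LEF site and 11.4% the GATA site. The second Ly6c1 promoter held overlapping KLF matches, on the strand opposite to the gene, at 24 and 20 bases before the start, and no promoter of the set held the sterol core. These matches are descriptions of letters in one window and do not say whether a factor binds there.

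**Figure D2:**
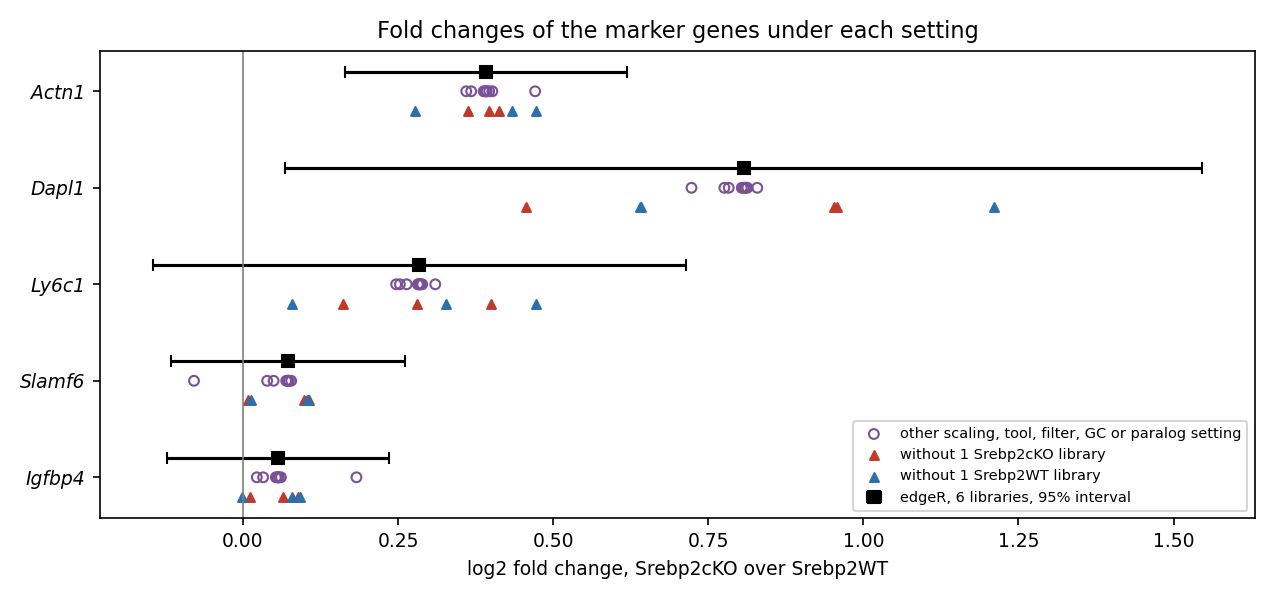
Log2 fold change (Srebp2cKO over Srebp2WT) of each marker gene, as a square with its 95% interval from edgeR's quasi-likelihood fit on all 6 libraries, with open circles for the other settings and triangles for fits that leave out 1 Srebp2cKO library (red) or 1 Srebp2WT library (blue). The intervals of Actn1 and Dapl1 lie above 0 and those of Ly6c1, Slamf6 and Igfbp4 include it. Dapl1 spreads from 0.46 to 1.21 over the triangles.

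Levels were compared between the genes per kilobase of transcript, as RPKM over the union of annotated exons. In that scale the order in Srebp2cKO Tregs was Actn1 (49.4 ± 1.47 RPKM), Igfbp4 (29.1 ± 1.59), Ly6c1 (18.5 ± 3.20), Slamf6 (17.3 ± 1.31) and Dapl1 (8.13 ± 3.00). In Srebp2WT Tregs Actn1 had 37.7 ± 5.51 RPKM, Igfbp4 28.0 ± 1.98, Slamf6 16.5 ± 1.23, Ly6c1 15.2 ± 4.22 and Dapl1 4.66 ± 2.00 (SD, n = 3 each). Ly6c1 and Slamf6 overlapped in both genotypes and their order is not set by these data, while the other neighbours in the order did not overlap. The order also depended on the transcript length. With the principal transcript of each gene in place of all exons, an alternative chosen after the data were seen, Slamf6 had the highest mean, with 75.5 ± 5.73 RPKM in Srebp2cKO and 71.8 ± 5.35 RPKM in Srebp2WT Tregs, since its exons together are 10832 bases and its principal transcript 2485 bases. On that scale Actn1 had 73.2 ± 2.17 RPKM in Srebp2cKO and 55.8 ± 8.16 RPKM in Srebp2WT Tregs, and the libraries of Slamf6 and Actn1 overlapped in Srebp2cKO, so their order there is not set.

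Across the 6 libraries, log2 CPM centred on each gene's mean set the genes apart in their profiles. Slamf6 and Igfbp4 followed each other most closely, with a root-mean-square difference of 0.02, and both were lowest in Srebp2WT replicate 3 and highest in Srebp2cKO replicate 8. Actn1 and Ly6c1 differed by 0.21 and shared their low value in Srebp2WT replicate 1, at -0.45 for Actn1 and -0.63 for Ly6c1. Dapl1 was farthest from every other gene of the set, by 0.44 to 0.60. These are 6 points that share libraries and depth, so the distances are descriptions.

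The same measure was taken against the median of 18 resting T cell genes. That median was 0.18, 0.21 and 0.07 in Srebp2cKO replicates 6, 7 and 8, against -0.33, -0.10 and -0.09 in Srebp2WT replicates 1, 3 and 5. Actn1 was the closest of the 5 to it, with a root-mean-square difference of 0.08. Igfbp4 and Slamf6 stood at 0.20 and 0.21, Ly6c1 at 0.24 and Dapl1 at 0.45. Actn1 and the list median share the low value of Srebp2WT replicate 1, the largest deviation in either profile. The list was written with earlier results of these data known. Distances of genes outside the set to its median were not taken. The closeness of Actn1 is therefore a description and does not show a shared resting program.

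**Figure D3:**
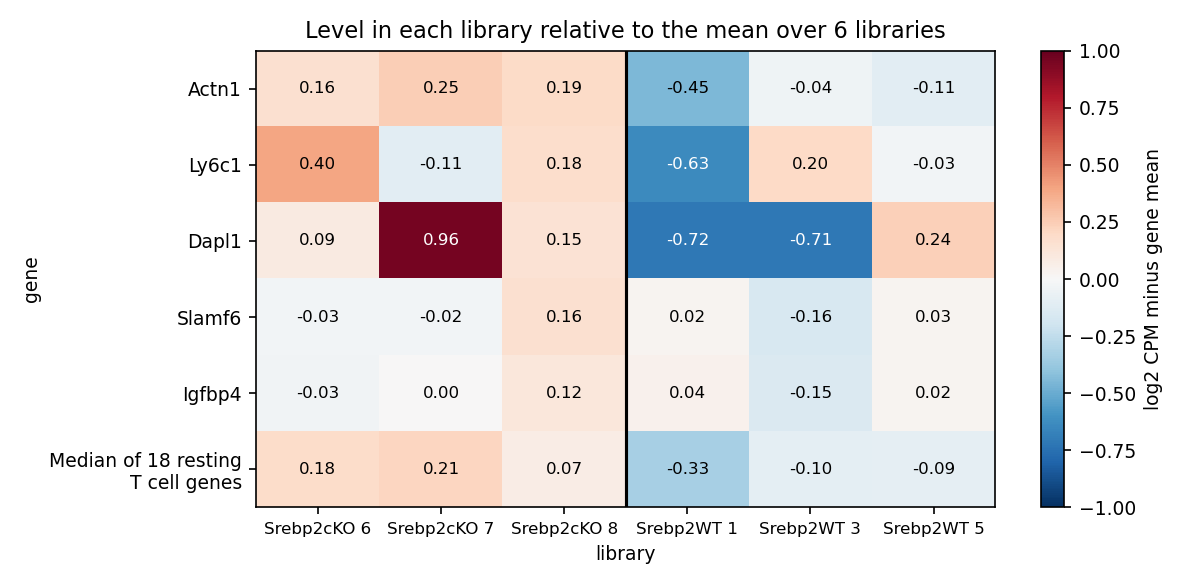
Heat map of log2 CPM minus the gene's mean over the 6 libraries, with a row for each marker gene and one for the median of 18 resting T cell genes, and Srebp2cKO libraries in the columns at the left of the line, Srebp2WT libraries at the right. Red cells are above and blue cells below the mean. Actn1 has the pattern of the list median, Slamf6 and Igfbp4 stay near 0 together, and Dapl1 ranges from 0.96 in Srebp2cKO replicate 7 to -0.72 in Srebp2WT replicate 1.

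Among 8577 genes with a mean log2 CPM of at least 3, the nearest profiles to each gene were taken by the same distance. For Slamf6 they were Gtf2f1 (0.0299), Cep192 (0.0319) and Rnf149 (0.0328), with a median over candidates of 0.166. For Igfbp4, with a median of 0.158, they were Gtf2f1 (0.0202), Ckap5 (0.0237) and Cep192 (0.0246), so Gtf2f1 and Cep192 were near both genes. For Actn1 they included Fam101b (0.0336) and Osgin2 (0.0341), with a median of 0.248. For Ly6c1 they were Bcl2l11 (0.114), Galnt10 (0.132) and Pla2g4f (0.133), with a median of 0.343. For Dapl1 they were Art4 (0.222), Uqcrb (0.224) and Camk2n1 (0.227), with a median of 0.578, so the nearest and the typical candidate were both farther from Ly6c1 and Dapl1 than from the other 3 genes.

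The 18 resting T cell genes that stand beside this set, receptors and transcription factors of naive and central cells, were all tested. Of these 5 were higher, where the share over all tested genes was 2.37%, and 0 lower in Srebp2cKO Tregs. An unadjusted p below 0.05 was reached by 15 of them, in either direction, where the share over all tested genes was 29.1%, and the median log2 fold change was 0.35 against -0.000151 over all tested genes. DESeq2 called 11 of the list. Bcl2, which protects from apoptosis, rose by 0.52 on the log2 scale (adjusted p = 0.0180), Klf2, a factor that drives S1pr1, by 0.46 (adjusted p = 0.0203) and Foxp1, which maintains T cell quiescence, by 0.38 (adjusted p = 0.0202). The log2 fold change was negative for 2 genes, named here after their values were seen. They were Id3, an inhibitor of E protein transcription factors, at -0.42 (adjusted p = 0.0626), and Cd27, a costimulatory receptor, at -0.16 (adjusted p = 0.177). For both, all 3 Srebp2cKO libraries lay below all 3 Srebp2WT libraries, an arrangement that 15.5% of all tested genes showed. No gene of the list was called without Srebp2WT replicate 1 or without Srebp2WT replicate 3, where the count was 0 in each case. The list was written with these data's earlier results known and is not independent evidence of its direction.

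**Figure D4:**
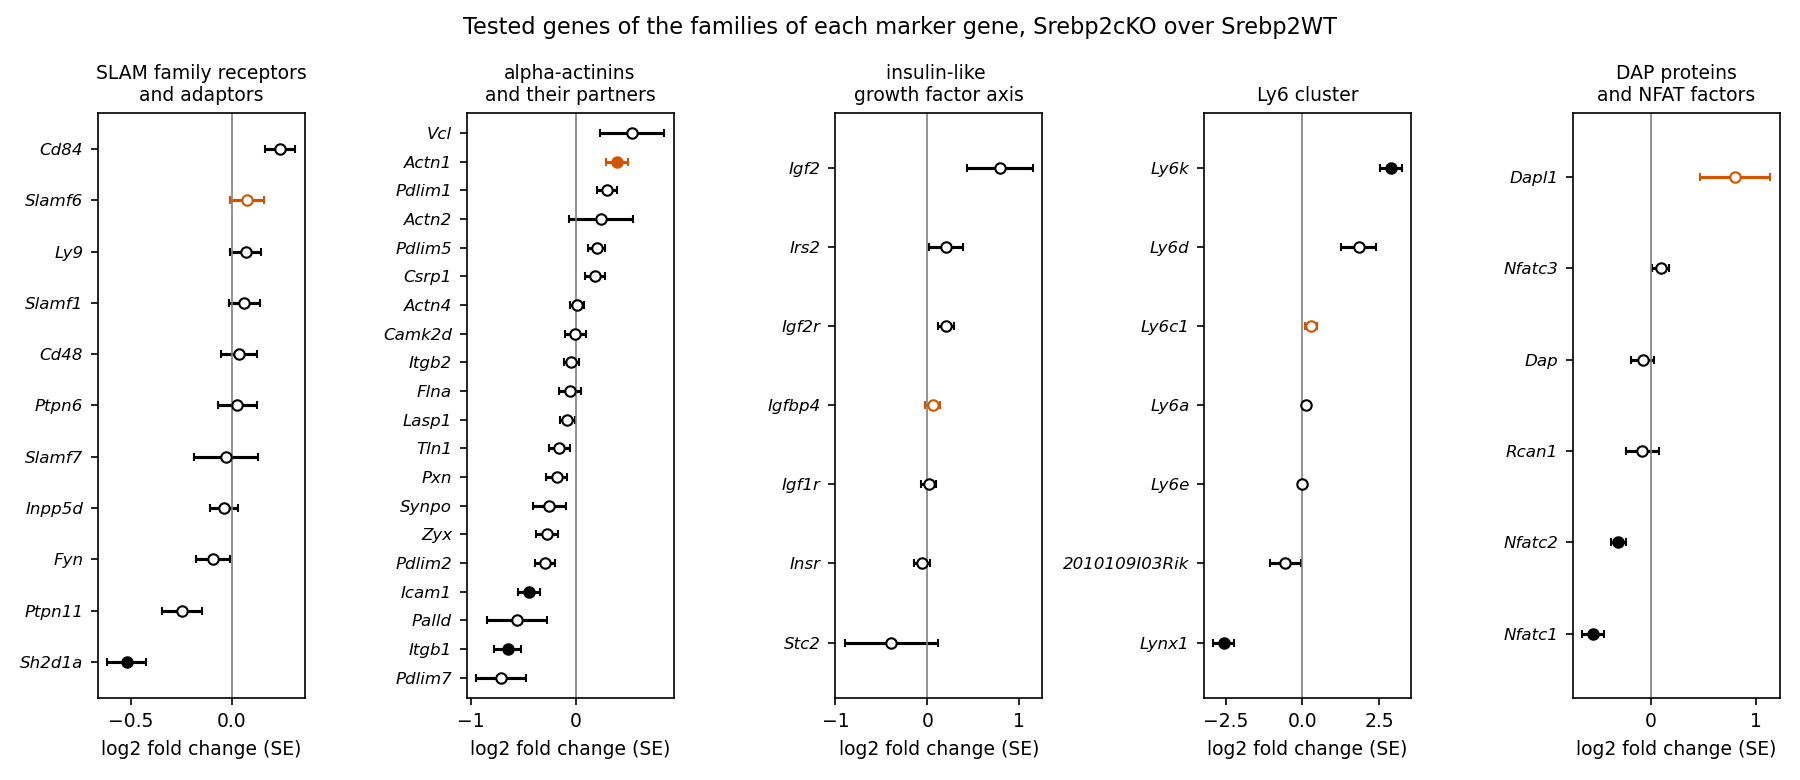
Log2 fold change (Srebp2cKO over Srebp2WT) with its SE for the tested genes of the family or partner list of each marker gene, 1 panel per list with its own axis range. Filled symbols mark genes with an adjusted p below 0.05, open symbols genes that did not pass, and the marker genes are in orange. Sh2d1a, Itgb1, Icam1, Nfatc1 and Nfatc2 are the filled symbols below 0 outside the Ly6 panel, which spans from -2.56 for Lynx1 to 2.88 for Ly6k.

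The SLAM family and its adaptors held 10 tested genes besides Slamf6, of which 0 were higher and 1 lower, with a median log2 fold change of -0.00267 and 3 genes at an unadjusted p below 0.05. Over all tested genes the shares were 2.37% higher, 4.24% lower and 29.1% at an unadjusted p below 0.05. The gene that passed was Sh2d1a, which encodes SAP, the adaptor that Slamf6 signals through. It averaged 36.9 ± 4.19 CPM in Srebp2cKO Tregs and 53.1 ± 1.05 CPM in Srebp2WT Tregs (SD, n = 3 each), a log2 fold change of -0.52 (SE 0.10, adjusted p = 0.0161). Its call was lost without Srebp2WT replicate 1 (log2 fold change -0.52, adjusted p = 0.0694) and without Srebp2WT replicate 3 (-0.53, adjusted p = 0.0595), and with a GC trend removed the log2 fold change was -0.82 (adjusted p = 0.000394). Cd84, a SLAM receptor and the nearest tested gene to Slamf6 on one side at 26.8 kb, had 287 ± 10.4 CPM in Srebp2cKO Tregs and 243 ± 14.7 CPM in Srebp2WT Tregs, with a log2 fold change of 0.24 and an adjusted p of 0.0764 in edgeR, was called in DESeq2 (adjusted p = 0.0407) and had a log2 fold change of 0.00071 with a GC trend removed (adjusted p = 0.997). Ptpn11, a phosphatase, and Fyn, a kinase that SAP recruits, had log2 fold changes of -0.25 and -0.09 with adjusted p-values of 0.133 and 0.478. The paralogs Ly9, Slamf1, Cd48 and Slamf7 had log2 fold changes of 0.07, 0.06, 0.03 and -0.03, with adjusted p-values of 0.586 to 0.917. On the other side of Slamf6, Vangl2 at 47.8 kb had a log2 fold change of -0.64 and an adjusted p of 0.141.

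The insulin-like growth factor axis held 6 tested genes besides Igfbp4. None passed in edgeR, DESeq2 or limma-voom (0 in each), 1 had an unadjusted p below 0.05 in edgeR, and the median log2 fold change was 0.11. In edgeR 6.61% of all tested genes passed and 29.1% had an unadjusted p below 0.05. Igf2r, the receptor that clears IGF2, had 497 ± 32.1 CPM in Srebp2cKO Tregs and 433 ± 33.5 CPM in Srebp2WT Tregs, a log2 fold change of 0.20 with an adjusted p of 0.150. The growth factor Igf2, at only 11 to 38 counts per library, had a log2 fold change of 0.79 (adjusted p = 0.172). The receptor substrate Irs2 had one of 0.20 (adjusted p = 0.496). Stc2, an inhibitor of Pappa, had 3 to 15 counts per library and a log2 fold change of -0.39 (adjusted p = 0.632). Single libraries moved both Irs2 and Stc2: Irs2 was at 0.39 without Srebp2cKO replicate 7 and 0.00312 without Srebp2cKO replicate 8, and Stc2 at -1.04 without Srebp2cKO replicate 7 and -0.05 without Srebp2cKO replicate 6. Igf1r, the signalling receptor, had 311 ± 22.3 CPM in Srebp2cKO Tregs and 308 ± 13.0 CPM in Srebp2WT Tregs, a log2 fold change of 0.01. Among the binding proteins Igfbp4 had 1677 to 2343 counts. Igfbp1, Igfbp2 and Igfbp3, and the protease Pappa that cleaves Igfbp4, had 0 counts in every library, and Igfbp7 had 4 to 15 counts. Ccr7, the chemokine receptor for lymph node entry and the nearest tested gene on one side of Igfbp4 at 89.8 kb, averaged 225 ± 22.8 CPM in Srebp2cKO Tregs and 165 ± 16.1 CPM in Srebp2WT Tregs (log2 fold change 0.45, adjusted p = 0.0281). Its call was lost without Srebp2WT replicate 1 (adjusted p = 0.119), Srebp2WT replicate 3 (adjusted p = 0.106) or Srebp2cKO replicate 8 (adjusted p = 0.0614). Top2a on the other side, at 17.1 kb, had a log2 fold change of -0.39 and an adjusted p of 0.280.

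The alpha-actinins and their partners held 19 tested genes besides Actn1, of which 0 were higher and 2 lower, with a median log2 fold change of -0.08. The share called lower over all tested genes was 4.24%. Itgb1, the beta-1 integrin chain, averaged 343 ± 60.2 CPM in Srebp2cKO Tregs and 538 ± 68.5 CPM in Srebp2WT Tregs (SD, n = 3 each; log2 fold change -0.65, adjusted p = 0.0210). Icam1, a ligand of the integrin LFA-1, averaged 40.5 ± 2.64 CPM in Srebp2cKO Tregs and 55.2 ± 6.48 CPM in Srebp2WT Tregs (log2 fold change -0.45, adjusted p = 0.0331). Itgb2, another integrin chain that binds alpha-actinin, had a log2 fold change of -0.04 and an adjusted p of 0.707, and the genotypes overlapped. Itgb1 was not called without Srebp2WT replicate 1 (adjusted p = 0.0978) or Srebp2cKO replicate 7 (adjusted p = 0.0579), and Icam1 was not called without Srebp2WT replicate 1 (0.146), Srebp2WT replicate 3 (0.114), Srebp2cKO replicate 7 (0.0929), Srebp2cKO replicate 8 (0.0577) or with a GC trend removed (0.0653).

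The paralog Actn4, the other non-muscle alpha-actinin, had 184 ± 2.43 CPM in Srebp2cKO Tregs and 183 ± 4.63 CPM in Srebp2WT Tregs (SD, n = 3 each). Its log2 fold change was 0.01 (95% interval -0.14 to 0.16, adjusted p = 0.925), and it became -0.0119 with upper-quartile and -0.0219 with total-count scaling. The difference between Actn1 and Actn4 was not itself tested. Actn2, a muscle form, had 2.56 CPM in Srebp2cKO Tregs and 2.17 CPM in Srebp2WT Tregs on average, and Actn3 had 1 count in 1 library. Pdlim1 and Pdlim2, proteins that bind alpha-actinin through PDZ domains, had log2 fold changes of 0.29 and -0.30 with adjusted p-values of 0.0829 and 0.0784. With a GC trend removed these were 0.14 for Pdlim1 and -0.13 for Pdlim2, and without Srebp2cKO replicate 6 Pdlim2 was called (-0.36, adjusted p = 0.0442). Of the genes beside Actn1, 2310015A10Rik at 34.7 kb was lower, with 27.8 ± 4.35 CPM in Srebp2cKO Tregs and 52.5 ± 10.8 CPM in Srebp2WT Tregs (log2 fold change -0.92, adjusted p = 0.0103), and Dcaf5 at 75.5 kb had a log2 fold change of -0.07 and an adjusted p of 0.531.

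Beside Dapl1 a list of Dap, Rcan1 and the NFAT factors held 5 tested genes. NFAT factors are transcription factors that calcineurin switches on after T cell receptor engagement. Of the 5 tested genes 0 were higher and 2 lower, with a median log2 fold change of -0.08. Over all tested genes 2.37% were higher and 4.24% lower. Nfatc1 averaged 252 ± 9.21 CPM in Srebp2cKO Tregs and 369 ± 54.5 CPM in Srebp2WT Tregs (log2 fold change -0.55, adjusted p = 0.0177). Nfatc2 averaged 162 ± 8.99 CPM in Srebp2cKO Tregs and 201 ± 1.37 CPM in Srebp2WT Tregs (log2 fold change -0.31, adjusted p = 0.0327). Neither was called without Srebp2WT replicate 1 (adjusted p of 0.0689 for Nfatc1 and 0.129 for Nfatc2) or without Srebp2WT replicate 3 (0.0759 for Nfatc1 and 0.121 for Nfatc2), and Nfatc2 was also not called without Srebp2cKO replicate 7 (0.0820), without Srebp2cKO replicate 8 (0.0867) or with a GC trend removed (0.0893). Nfatc3 had a log2 fold change of 0.09 and an adjusted p of 0.442. Dap had 21.4 ± 1.24 CPM in Srebp2cKO Tregs and 22.5 ± 2.32 CPM in Srebp2WT Tregs, with a log2 fold change of -0.08 that was 0.07 with a GC trend removed. The scaffold gene Tanc1, at 107 kb from Dapl1, had 36.4 ± 2.86 CPM in Srebp2cKO Tregs and 27.9 ± 2.26 CPM in Srebp2WT Tregs (log2 fold change 0.38, adjusted p = 0.0491). It was not called without any 1 of the 6 libraries, with adjusted p-values of 0.189, 0.124 and 0.0503 without Srebp2WT replicates 1, 3 and 5 and 0.0684, 0.0621 and 0.104 without Srebp2cKO replicates 6, 7 and 8. Pkp4, 129 kb to the other side, had a log2 fold change of 0.09 and an adjusted p of 0.559.

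The Ly6 cluster around Ly6c1 held 6 tested genes besides it, of which 1 was higher and 1 lower, with a median log2 fold change of 0.04. The shares over all tested genes were 2.37% higher and 4.24% lower. Ly6k had 185, 246 and 105 counts in Srebp2cKO replicates 6, 7 and 8, against 28, 25 and 21 counts in Srebp2WT replicates 1, 3 and 5, and every Srebp2cKO library was above every Srebp2WT library, as for 16.0% of all tested genes. Its log2 fold change was 2.88 (SE 0.35, adjusted p = 0.00169). Lynx1, a member of the family that binds nicotinic acetylcholine receptors, had 5, 9 and 6 counts in Srebp2cKO replicates 6, 7 and 8, against 47, 41 and 32 counts in Srebp2WT replicates 1, 3 and 5 (log2 fold change -2.56, SE 0.34, adjusted p = 0.00309). Ly6c1 lay between these extremes and overlapped between genotypes, although Ly6k is 244 kb and Lynx1 291 kb from it. The cluster lies 7.1 Mb from Srebf2 on the same chromosome, so alleles carried along with the floxed Srebf2 locus and the loss of Srebp2 cannot be told apart there.

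Of the other Ly6 genes, Ly6a (Sca-1), 46 kb from Ly6c1, had 69.8 ± 9.07 CPM in Srebp2cKO Tregs and 64.7 ± 1.87 CPM in Srebp2WT Tregs, with a log2 fold change of 0.11 and an adjusted p of 0.489. Ly6e had 887 ± 59.2 CPM in Srebp2cKO Tregs and 900 ± 33.2 CPM in Srebp2WT Tregs, with a log2 fold change of -0.02 and an adjusted p of 0.888. Ly6d, at only 1 to 25 counts per library, had a log2 fold change of 1.83 with an adjusted p of 0.0763. The gene 2010109I03Rik, at 8 to 45 counts per library, had one of -0.55 with an adjusted p of 0.485. Zfp41, the nearest tested gene on the other side of Ly6c1 at 568 kb, had a log2 fold change of -0.41 and an adjusted p of 0.0849.

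Several of these markers are made by other cells of spleen and lymph node, so marker sums were taken in each library, in CPM of total counts. Slamf6 is also expressed by B cells, and Ly6c1 by myeloid, plasma and endothelial cells. B cell markers summed to 26.7 to 35.3 CPM in Srebp2cKO libraries, against 56.8 to 80.4 CPM in Srebp2WT libraries (exact two-sided permutation p = 0.1, the smallest that 3 against 3 allows). Of 5 tested, Cd74, Cd22 and Cd79b were lower. The others went the other way without passing, Cd79a at a log2 fold change of 0.56 (edgeR adjusted p = 0.308) and Fcmr at 0.29 (0.666). Ms4a1 and Pax5 were at 2 counts or fewer in every library. Myeloid markers summed to 64.2 to 75.5 CPM in Srebp2cKO libraries, against 67.7 to 130 CPM in Srebp2WT libraries. Of 3 tested, Cybb, the most abundant, was lower (log2 fold change -0.87, adjusted p = 0.0216). The others had positive log2 fold changes without passing, Itgam at 1.07 (adjusted p = 0.108) and Ccr2 at 0.12 (adjusted p = 0.823). S100a8 and S100a9 were at 0, and Lyz2, Csf1r and Cd14 at 5 counts or fewer in every library. Plasma cell markers summed to 60.1 to 64.3 CPM in Srebp2cKO libraries, against 63.7 to 66.9 CPM in Srebp2WT libraries, with Tnfrsf17 at 0. Xbp1, at 833 to 1085 counts per library, made up nearly all of this sum, and Sdc1, Jchain and Mzb1 had 13 counts or fewer. Dendritic cell markers summed to 14.2 to 22 CPM in Srebp2cKO libraries, against 25.9 to 27 CPM in Srebp2WT libraries, with Itgax and Flt3 at 0 (exact permutation p = 0.1). Bst2, at 204 to 379 counts per library, was the most abundant of the dendritic cell markers. Endothelial markers summed to 216 to 230 CPM in Srebp2cKO libraries, against 167 to 180 CPM in Srebp2WT libraries, again with an exact permutation p of 0.1. Nearly all of this was Pecam1, which T cells also express and which was higher (log2 fold change 0.39, adjusted p = 0.0139), with the other 6 at 7 counts or fewer. CD8 T cell markers summed to 9.34 to 11.1 CPM in Srebp2cKO libraries, against 7.83 to 9.71 CPM in Srebp2WT libraries. Natural killer cell markers summed to 4.06 to 7.61 CPM in Srebp2cKO libraries, against 4.77 to 6.05 CPM in Srebp2WT libraries. Of these Klrb1c was lower (log2 fold change -1.36, adjusted p = 0.0399), while Eomes, the most abundant, had a log2 fold change of 0.66 (adjusted p = 0.170). Ncr1, Klra8 and Klre1 were at 0. The part of these cells in the values of the 5 genes was not tested. In RNA from a whole population, fewer cells that express a gene and less RNA per cell cannot be told apart, and this holds for every level given here.

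Fold changes over all genes moved with transcript GC content. Slamf6, with a GC content of 43.0%, fell in decile 2, whose median log2 fold change was 0.16, and Igfbp4, at 55.1%, in decile 8, whose median was -0.12. Actn1, at 53.0%, was in decile 7 with a median of -0.07, below its own 0.39. With the trend removed, the log2 fold change was -0.08 for Slamf6, 0.18 for Igfbp4 and 0.47 for Actn1, whose adjusted p was then 0.0243.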

How the data were processed

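RNA of spleen and lymph node Tregs was extracted with an RNeasy kit and libraries were made with a KAPA RNA HyperPrep kit with RiboErase, by the labels' protocols. A single table of raw counts per gene symbol was deposited for the 6 libraries. The submitters' processing notes name HISAT2 2.2.1, Cell Ranger and mm10 without their roles, and the counting tool, annotation and strand setting were not stated in the sources used here. Columns were matched to samples by title. Totals were 13918321 to 17249898 counts, and counting intervals cover counting error only.

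Of 24421 genes, 8113 were at 0 in every library and filterByExpr kept 11932. Counts were scaled by TMM, and edgeR 4.0.16 (R 4.3.3) gave quasi-likelihood F tests between genotypes, adjusted over all tested genes by Benjamini-Hochberg, with a threshold of 0.05. An SE is the size of the log2 fold change divided by the square root of F. Log2 CPM profiles used a prior count of 2. Marker sums were compared with an exact permutation test. Alternatives were DESeq2 1.42.0, voom in limma 3.58.1, a robust fit, scaling by RLE, by upper quartiles or by total counts, other filters, a false discovery rate of 0.1, removal of a loess trend on GC (span 0.3), Ly6c1 and Ly6c2 summed, each library left out, and, chosen after seeing the data, another transcript length. Positions, lengths, GC and shared words of 50 bases came from GENCODE M21 on GRCm38, and promoters from RefSeq on GRCm38.p6.

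Besides the 5 genes, Srebf2 and Foxp3, the text names up to 4 genes of each list with the smallest p, paralogs, the 3 nearest profiles of each gene and the nearest tested gene on each side with a mean log2 CPM of at least 1. Itgb2, Igf1r, Pappa, Id3, Cd27, Rcan1 and the other Treg and cell type markers are named outside this rule. The genes and lists were chosen with earlier results of these data known. The results of some genes named by this rule are left out.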

Additional observations from a re-analysis of the deposited data

How the results depend on the processing

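Of the 5 genes, 1 (Actn1) passed as reported, 0 passed with upper-quartile scaling (log2 fold change 0.368, adjusted p = 0.0521) or total-count scaling (0.36, adjusted p = 0.0555), and 0 to 1 passed when a library was left out, with Actn1 at 0.278 to 0.472. The number of genes called over the whole table was 789, and it was 1374 in DESeq2, 1205 without a filter, 1893 at a false discovery rate of 0.1 and 167 to 1487 with a library left out. Called genes of the resting T cell list numbered 11 in DESeq2 and 10 without a filter or at a false discovery rate of 0.1, and 0 to 7 with a library left out, against 5 as reported. Dapl1 ranged from 0.457 to 1.21 and Ly6c1 from 0.0799 to 0.472 with a library left out, and none of the runs with all libraries moved either past the threshold. Values that changed sign were all small, at most 0.147 in size with adjusted p of 0.323 or more. With a GC trend removed these were Slamf6 (-0.0788), Slamf1 (-0.147), Cd48 (-0.145), Foxp3 (0.0628) and Dap (0.0713). Actn4 was -0.0119 with upper-quartile and -0.0219 with total-count scaling, and with a library left out Actn4 ranged from -0.00502 to 0.0298, Igfbp4 from -0.00109 to 0.0924, Dap from -0.151 to 0.00147, Cd48 from -0.0586 to 0.104 and Slamf7 from -0.136 to 0.123. The cause was not tested. For Dapl1, the gene with the fewest counts, counting error was 10.8% in Srebp2cKO and 14.4% in Srebp2WT libraries, against a spread between libraries of 36.9% in Srebp2cKO and 42.9% in Srebp2WT. Cd84 was 0.00071 and Sh2d1a -0.816 with a GC trend removed. No paired analysis was possible because the genotypes share no replicate number.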
